A study of Homo sapiens with 6 samples.

Results

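The 33 genes described here make, sense, store and export cholesterol, or make fatty acids under the same regulators, and they were picked by exact gene name from the 62754 genes of the deposited tables. Each name matched 1 row, and all 33 passed the filter on low counts that left 16931 genes for testing. RNA-seq was performed on HFF-2 cells, a line of human dermal fibroblasts (HDFs), at day 4 of treatment with tert-butyl hydroperoxide (tBHP, an organic peroxide that imposes oxidative stress) at 40 μM for 1 h, 2 times per day. The 3 SCR libraries came from HDFs with a lentiviral scramble shRNA and the 3 TFEB-KD libraries from HDFs with a lentiviral shRNA against TFEB, a transcription factor of lysosome and autophagy genes, and carriers of either vector were selected with puromycin. Both groups received tBHP, so the comparison holds no value without tBHP. The knockdown used 1 hairpin in 1 cell line, so effects of the hairpin sequence and of the loss of TFEB cannot be told apart. Under tBHP, the study reported lower cell numbers and more apoptosis in TFEB-KD than in SCR HDFs. The part of these differences in the results was not tested. Nothing in the labels ties the 3 replicates of a group to separate infections, so the p-values measure the spread between these libraries.

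Cholesterol is built from acetyl-CoA through mevalonate, the isoprenoids and squalene, and then through a series of sterols. Its synthesis is set by SREBP factors, which SCAP escorts from the endoplasmic reticulum to the Golgi for activation by proteolysis when sterols are low and which INSIG proteins retain when sterols are high. Oxysterols that accumulate with cholesterol are ligands of the LXR receptors, which switch on export pumps. In fibroblasts, these arms together set how much cholesterol reaches the membranes and how much is stored or handed to lipoproteins.

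The libraries held 38769620 to 55135426 estimated counts, of which 76963 to 107100 fell on the 33 genes. TFEB (ENSG00000112561.19, chromosome 6 of GRCh38, 41683978 to 41736259) was at 14.95, 14.9 and 16.4 CPM (counts scaled for library size with TMM factors) in SCR replicates 1 to 3 and at 9.62, 8.20 and 8.87 CPM in TFEB-KD replicates 1 to 3. Every TFEB-KD library was thus below every SCR library, with a mean at 57.6% of SCR and a log2 fold change of -0.80 (SE 0.077, edgeR adjusted p = 1.37e-05). Here and below, a log2 fold change (log2 FC) above 0 means a higher value in TFEB-KD, and SE is its standard error. Of 10 fibroblast markers, all 10 passed the filter on low counts, with VIM the most abundant in TPM (a level scaled for transcript length and library). Markers of endothelial cells and adipocytes summed to 0.0876 and 0.154 TPM in SCR and to 0.130 and 0.145 TPM in TFEB-KD. The 5 markers of immune cells summed to 90.4, 92.0 and 97.1 TPM in SCR and to 143.9, 134.2 and 124.4 TPM in TFEB-KD. CD68, a lysosomal glycoprotein, made up nearly all of that sum, whereas PTPRC averaged 0.0555 TPM in SCR and 0.0771 in TFEB-KD and the T-cell gene CD3E was at 0 in 5 of the 6 libraries.

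Most of the cholesterol genes moved little in TFEB-KD HDFs, and the 2 that rose were the export pump gene ABCA1, 2.87-fold, and the sterol sensor INSIG1, 1.36-fold. The 4 that fell were LSS and TM7SF2 of the sterol steps and SCD and ACACA of fatty acid synthesis, to 67.1%, 77.4%, 71.1% and 77.1% of the SCR CPM. A differentially expressed gene (DEG) had to pass both thresholds of the study, 0.05 for the adjusted p and 0.36 for the size of the log2 FC in either direction. The 6 DEGs are 18.2% of the 33 genes, beside 24.9% of all genes tested, and by direction 9.99% of all genes were called higher and 15% lower. The median log2 FC over the 33 genes was -0.079 (0.0033 over all genes tested), and the median absolute value was 0.152 (0.233 over all genes tested). By the adjusted p alone, 3 of the 33 were higher and 10 lower, beside 20.7% and 24% of all genes, and 7 of these 13 lay within the fold change threshold. Of the 10 fibroblast markers, 7 were DEGs lower in TFEB-KD and 2 higher, beside the same 15% and 9.99% of all genes, from -1.52 for the collagen gene COL1A1 to 1.51 for the receptor gene PDGFRA, with VIM at -0.012. The part of these markers in the results was not tested. In bulk RNA, fewer cells of a type and less RNA per cell cannot be told apart.

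**Figure D1:**
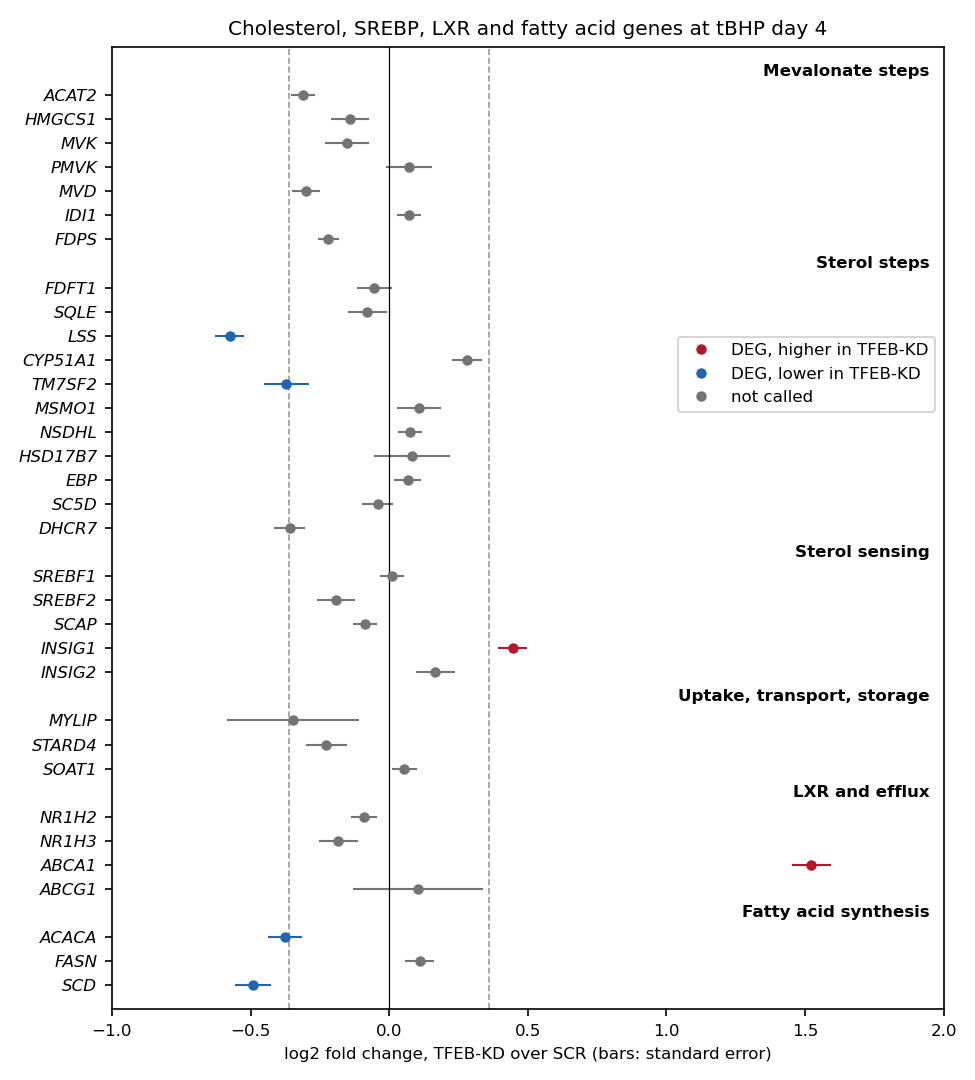
Log2 fold change of each of the 33 genes, grouped by role, with bars for the standard error, dashed lines at the fold change threshold of 0.36 in either direction and color for the call (n = 3 libraries per group). ABCA1 (1.52) lies far to the right of the other genes, all of which are between -0.58 and 0.45.

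For 20 of the 33 genes (60.6%, beside 55.4% of all genes tested) the 2 groups were separate in CPM. In 7 of these every TFEB-KD library was above every SCR library, and in 13 below, beside 27% and 28.4% of all genes. Within SCR, replicate 3 was the highest library for 21 of the 33 genes and for 13 of the 18 synthesis genes. The same library had the lowest summed level of 17 cell cycle genes, at 497.5 TPM, beside 654.2 and 674.4 TPM in the other SCR libraries and 581.6 to 596.8 TPM in TFEB-KD, and PCNA (log2 FC 0.27, not a DEG) was the most abundant of these genes. Between the groups, 4 of the 17 were DEGs lower in TFEB-KD, led by the mitotic kinase genes AURKA (-0.97) and PLK1 (-0.51), and none was higher, beside 15% and 9.99% of all genes. The log2 FC was below 0 for 13 of the 17, with a median of -0.26, and the part of this list in the results was not tested. Without this library ABCA1, INSIG1, LSS and SCD were still called while TM7SF2 and ACACA were not. Mitochondrial transcripts took 1.81% to 2.14% of the counts in SCR and 2.76% to 2.90% in TFEB-KD, and their part in the results was not tested.

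**Figure D2:**
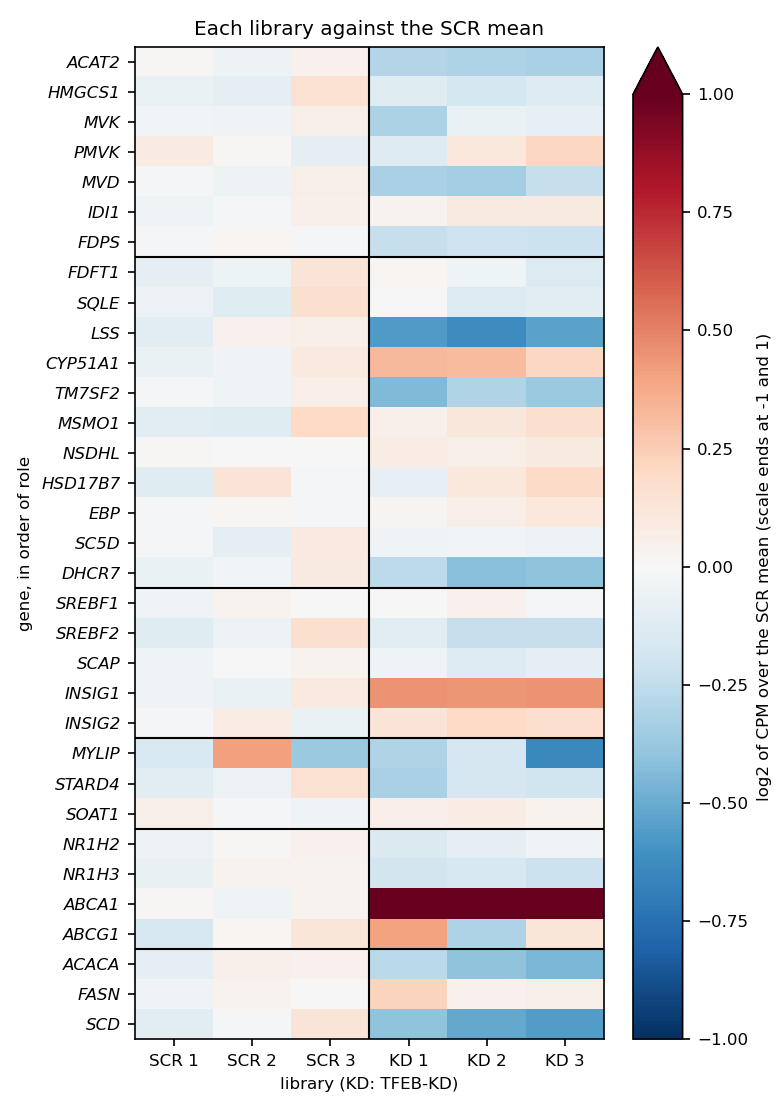
Each row is a gene and each column a library, and color gives the log2 ratio of that library's CPM to the SCR mean of the gene, with black lines between roles and groups. The rows of ABCA1, INSIG1, LSS and SCD keep 1 color across the 3 TFEB-KD libraries, and SCR replicate 3 is the highest SCR library in 21 of the 33 rows.

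Levels per length spanned a wide range, from 0.380 TPM for ABCG1 to 184.5 TPM for FDPS in SCR, with a median of 27.1 TPM. FDPS, the farnesyl diphosphate synthase, was followed by FDFT1 (138.4 TPM), the squalene synthase, and NR1H2 (120.9 TPM), the gene of LXR beta. ABCA1, at 1.63 TPM in SCR, was the third lowest of the 33, and at 4.77 TPM in TFEB-KD it was still under the SCR median of the list. Summed over the 18 synthesis genes, the level was 846.3 ± 28.8 TPM (SD, n = 3) in SCR and 783.6 ± 16.2 TPM (SD, n = 3) in TFEB-KD, a ratio of 0.926 that stayed between 0.912 and 0.943 with each library left out.

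**Figure D3:**
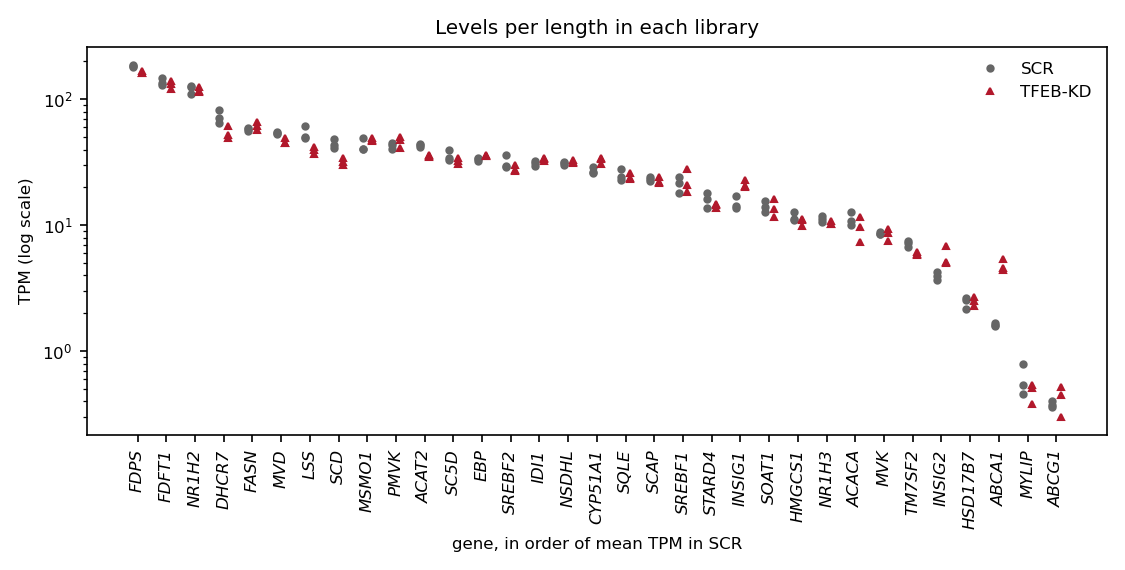
TPM of every gene in every library on a log scale, in order of the SCR mean, with circles for SCR and triangles for TFEB-KD. The triangles of ABCA1 stand apart from its circles (4.77 against 1.63 TPM on average), while for most of the other genes the symbols lie close together.

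Promoter sequences are shown to set the sequence beside the change. They are given for the DEGs ABCA1, INSIG1, LSS and SCD and for SREBF2, which was not a DEG. The DEGs TM7SF2 and ACACA are not shown. RefSeq start sites (GRCh38.p14) were at hand for 28 of the 33 genes, with a window of 250 bases before and 50 from the start. Letters searched on both strands were TCACNCCAC, a form of the sterol regulatory element that SREBPs bind, CACGTG, the E-box that TFEB and other basic helix-loop-helix factors can bind, TCACGTG, the same E-box with a flanking base of the CLEAR element of TFEB, and CCAAT, the box of NF-Y. TCACGTG contains CACGTG. Capitals mark TCACNCCAC, CACGTG or CCAAT, or their reverse complements, on the strand of the gene, and bases that GENCODE 44 annotates as untranslated were left out of the upstream stretches, so the E-boxes of INSIG1 and LSS, which lie nearer to or past the start, are given as short sites.

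Upstream stretches are given 5′ to 3′ for the 2 genes that rose, then for SREBF2, SCD and LSS.
ABCA1: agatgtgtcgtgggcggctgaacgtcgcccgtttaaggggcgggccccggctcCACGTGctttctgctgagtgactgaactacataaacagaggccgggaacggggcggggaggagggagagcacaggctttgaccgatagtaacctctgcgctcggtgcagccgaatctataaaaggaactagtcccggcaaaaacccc
INSIG1: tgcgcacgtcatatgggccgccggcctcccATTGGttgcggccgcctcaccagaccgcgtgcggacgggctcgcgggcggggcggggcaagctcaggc
INSIG1 E-box: cgggcaggctCACGTGatgcgggccc
SREBF2: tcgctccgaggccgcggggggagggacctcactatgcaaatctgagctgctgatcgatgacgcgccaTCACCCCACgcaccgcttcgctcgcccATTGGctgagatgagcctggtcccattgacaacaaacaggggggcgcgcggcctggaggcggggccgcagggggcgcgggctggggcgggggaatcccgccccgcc
SCD: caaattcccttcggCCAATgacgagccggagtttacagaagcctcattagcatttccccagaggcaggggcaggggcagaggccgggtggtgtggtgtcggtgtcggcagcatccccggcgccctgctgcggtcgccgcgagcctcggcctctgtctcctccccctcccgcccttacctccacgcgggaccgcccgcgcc
LSS: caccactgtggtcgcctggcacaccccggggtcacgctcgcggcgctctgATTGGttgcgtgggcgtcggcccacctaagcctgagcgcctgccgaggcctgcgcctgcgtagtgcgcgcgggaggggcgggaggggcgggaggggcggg
LSS E-box: tgacggagggCACGTGagtc

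The stretch of ABCA1 is chr9:104928156-104928355 on the minus strand, that of SREBF2 chr22:41832905-41833104 on the plus strand and that of SCD chr10:100347033-100347232 on the plus strand. For INSIG1 the stretch is chr7:155297678-155297775 and the E-box chr7:155297813-155297838, both on the plus strand, and for LSS they are chr21:46228825-46228974 and chr21:46228725-46228744 on the minus strand. CACGTG was in 5 of the 28 windows (17.9%), those of ABCA1, INSIG1, LSS, SC5D and SCAP, beside 7.43% of 27305 promoter windows. Of these, ABCA1 and INSIG1 were called higher, LSS lower, and SC5D and SCAP not called. Over all genes tested, 9.99% were called higher and 15% lower. TCACGTG was in 3 windows (10.7%, beside 3.82%), those of INSIG1, LSS and SC5D. TCACNCCAC was in that of SREBF2 alone (3.57%, beside 1.15%). CCAAT was in 18 windows (64.3%, beside 35.7%), among them 12 of the 15 synthesis genes with a window (80%). The 27305 windows include genes that did not pass the filter on low counts, whereas the 28 do not, so these shares are of unlike sets. A match is a description of letters and not of a bound site, and a gene with no match in this window can hold one elsewhere.

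The mevalonate steps, from acetyl-CoA units to farnesyl diphosphate, gave no DEG among 7 genes, beside 24.9% of all genes tested. By the adjusted p alone, 3 of the 7 were lower and none was higher, beside 24% and 20.7% of all genes. These 3 were ACAT2, which joins acetyl-CoA units, MVD, which makes isopentenyl diphosphate, and FDPS, which condenses the isoprenoids. ACAT2 was at 46.7, 44.7 and 47.6 CPM in SCR and at 37.8, 37.4 and 37.1 CPM in TFEB-KD. MVD was at 53.0, 51.8 and 55.8 CPM in SCR and at 42.8, 42.0 and 45.7 CPM in TFEB-KD. For FDPS, the values were 141, 145 and 142 CPM in SCR and 122, 124 and 123 CPM in TFEB-KD. ACAT2 overlaps exons of TCP1 (log2 FC 0.27) and SOD2 (-0.18) on the opposite strand. In all 3 genes the TFEB-KD libraries were below the SCR libraries without overlap, and the gap was wide beside the spread within each group. The log2 FCs were -0.31 (SE 0.044, edgeR adjusted p = 2.28e-04), -0.30 (SE 0.050, adjusted p = 7.00e-04) and -0.22 (SE 0.038, adjusted p = 8.25e-04). HMGCS1, which makes HMG-CoA (-0.14), and the mevalonate kinase MVK (-0.15) did not pass the test, although all 3 TFEB-KD libraries were below the SCR libraries in both in CPM. For HMGCS1 the log2 FC was -0.062 without SCR replicate 3 and -0.052 with library sizes alone. For MVK the groups overlapped in TPM, with means of 8.63 in SCR and 8.56 in TFEB-KD, and its log2 FC was -0.040 with length offsets and -0.062 without TFEB-KD replicate 1. MVK overlaps exons of the more abundant MMAB (-0.34) on the opposite strand. PMVK (0.071) and the isomerase IDI1 (0.072) did not pass it either, and their groups overlapped. Their intervals ran from -0.11 to 0.25 and from -0.026 to 0.17, and with 1 library left out PMVK ranged from 0.016 (TFEB-KD replicate 3) to 0.17 (TFEB-KD replicate 1) and IDI1 from 0.049 to 0.11. Summed over the 7 genes, the level was 376.3 ± 2.45 TPM (SD, n = 3) in SCR and 344.9 ± 6.02 TPM (SD, n = 3) in TFEB-KD.

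Among the 11 genes of the sterol steps, from squalene to cholesterol, 2 were lower and none was higher. Of all genes tested, 15% were lower and 9.99% higher. LSS (ENSG00000160285.15, chromosome 21, 46188141 to 46228824) encodes lanosterol synthase, which closes the first sterol ring system. It was at 134, 149 and 151 CPM in SCR and at 97.8, 93.8 and 99.8 CPM in TFEB-KD, without overlap and with less spread in TFEB-KD. The log2 FC was -0.58 (SE 0.053, edgeR adjusted p = 9.29e-06). It remained called with each library left out (-0.63 to -0.53) and under each other setting tried (-0.57 to -0.43). The smallest change came on log2(TPM + 1). Its E-box starts at base 41 counted from the RefSeq start. CYP51A1, the demethylase that acts next on lanosterol, was at 60.1, 61.7 and 67.3 CPM in SCR and at 78.8, 78.5 and 72.7 CPM in TFEB-KD. Its 3 TFEB-KD libraries were all above SCR, with a log2 FC of 0.28 (SE 0.054, edgeR adjusted p = 0.00172), within the fold change threshold. Exons of CYP51A1 overlap AKAP9 on the opposite strand, which also had a log2 FC above 0 (0.27), and whether the counting used strand is not given in the sources used here.

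TM7SF2 (ENSG00000149809.17, chromosome 11, 65111845 to 65116384), a sterol reductase of the nuclear envelope and endoplasmic reticulum, was at 7.63, 7.52 and 8.12 CPM in SCR and at 5.70, 6.31 and 5.99 CPM in TFEB-KD. The groups did not overlap, and the log2 FC was -0.37 (SE 0.081, edgeR adjusted p = 0.00364), just past the fold change threshold. DHCR7, which carries out a late reduction on the way to cholesterol, lay just inside the threshold at -0.359 (SE 0.057, edgeR adjusted p = 4.66e-04). It was at 106, 108 and 118 CPM in SCR and at 92.5, 83.2 and 83.7 CPM in TFEB-KD, again without overlap. These 2 calls depended on single libraries. TM7SF2 was not called without SCR replicate 3 (-0.34) or without TFEB-KD replicate 1 (-0.32) or 3 (-0.35), and DHCR7 was called without SCR replicate 1 (-0.39) or 2 (-0.37) and without TFEB-KD replicate 1 (-0.39). TM7SF2 shares exons with the more abundant VPS51 on the same strand, which was lower too (-0.45), so its own value is uncertain.

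The other 7 genes of the sterol steps did not pass the test, with log2 FCs from -0.079 for the epoxidase gene SQLE to 0.11 for MSMO1, which acts on the C4 methyl groups. MSMO1 depended on single libraries, at 0.22 without SCR replicate 3 (edgeR adjusted p = 0.00497) and at 0.053 and 0.052 without SCR replicates 1 and 2. FDFT1 (-0.053) and SC5D (-0.042), a desaturase, lay below 0 like SQLE, although all 3 were above 0 with library sizes alone, and NSDHL (0.076), EBP (0.067) and HSD17B7 (0.082) above 0, the last at -0.0021 with length offsets. Their 95% confidence intervals bound the change: from -0.19 to 0.087 for FDFT1, from -0.24 to 0.078 for SQLE and from -0.22 to 0.39 for HSD17B7, the least abundant of them. Reads of HSD17B7 can be shared with its pseudogene copies, whose rows hold 12.7% as many counts, and its log2 FC ranged from 0.021 to 0.17 with 1 library left out. NSDHL and EBP, a dehydrogenase and an isomerase, had all 3 TFEB-KD libraries above the SCR libraries, with intervals from -0.018 to 0.17 and from -0.040 to 0.17.

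Of the 5 sensing genes, INSIG1 was higher and the others were not called, beside 9.99% of all genes tested called higher and 15% lower. INSIG1 (ENSG00000186480.13, chromosome 7, 155297776 to 155310235) encodes an anchor of SCAP in the endoplasmic reticulum and is itself a well-known SREBP target. It was at 26.3, 25.7 and 28.8 CPM in SCR and at 36.8, 36.6 and 36.7 CPM in TFEB-KD. The TFEB-KD libraries were nearly identical and all above SCR, with a log2 FC of 0.45 (SE 0.053, edgeR adjusted p = 5.93e-05). It was called with each library left out (0.41 to 0.49) and under each other setting tried (0.45 to 0.54). Its E-box starts at base -55 from the RefSeq start. That start lies downstream of the gene start given here, so the E-box lies inside the GENCODE coordinates.

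INSIG2, its less sterol-responsive relative, was at 8.54, 9.08 and 8.26 CPM in SCR and at 9.43, 9.89 and 9.68 CPM in TFEB-KD. Every TFEB-KD library was above every SCR library, but the gene did not pass the test (0.17, SE 0.070, edgeR adjusted p = 0.0784). On the scale of TPM the gap was wider, with a mean of 3.97 ± 0.279 TPM (SD, n = 3) in SCR and 5.67 ± 1.07 TPM (SD, n = 3) in TFEB-KD. The mean length of its transcripts, read from the ratio of counts to TPM, was 0.808 times that in SCR, though the groups overlapped. With transcript lengths taken into account, INSIG2 was called higher (0.48, adjusted p = 0.0258 from edgeR with length offsets).

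Neither SREBP gene was called. SREBF1, whose products act mainly on fatty acid genes, was at 51.2, 53.7 and 52.2 CPM in SCR and at 52.2, 53.9 and 52.0 CPM in TFEB-KD. The groups overlapped throughout, with a log2 FC of 0.0092 and a 95% confidence interval from -0.085 to 0.10. Exons of RAI1 (0.16), which had more counts than SREBF1, overlap it on the opposite strand, so without strand the value may hold reads of both. SREBF2, the main regulator of cholesterol synthesis, was at 121, 126 and 147 CPM in SCR and at 121, 112 and 112 CPM in TFEB-KD. The groups touched at the lowest SCR and the highest TFEB-KD library, and SCR replicate 3 was the highest of the 6. Its log2 FC of -0.19 (SE 0.069, edgeR adjusted p = 0.0429) was within the fold change threshold, and without SCR replicate 3 it was -0.11 (edgeR adjusted p = 0.122). The adjusted p was also above 0.05 with SCR replicate 2 left out (-0.22, 0.0607) or with TFEB-KD replicate 2 (-0.15, 0.167) or 3 (-0.15, 0.168) left out. SCAP did not pass the test (-0.087, interval -0.18 to 0.0097), and with library sizes alone its log2 FC was 0.0028.

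The 3 genes of uptake, transport and storage gave no DEG, beside 24.9% of all genes tested. STARD4, a soluble carrier that moves cholesterol between membranes, was at 29.0, 30.0 and 34.9 CPM in SCR and at 25.05, 27.9 and 27.3 CPM in TFEB-KD, without overlap (-0.23, SE 0.074, edgeR adjusted p = 0.0279). The adjusted p from edgeR was above 0.05 with SCR replicate 3 left out (-0.14, 0.0805) or with TFEB-KD replicate 1 (-0.17, 0.116), 2 (-0.24, 0.0521) or 3 (-0.22, 0.0695) left out. Its antisense gene STARD4-AS1 had about as many counts and was lower (-1.05), so the 2 cannot be told apart without strand. MYLIP, an LXR-induced ubiquitin ligase that removes lipoprotein receptors, had 49 to 72 counts in each library and a standard error of 0.24, and its log2 FC of -0.35 did not pass the test (adjusted p = 0.267 from edgeR). At this depth its interval ran from -0.88 to 0.18, and single libraries moved the value from -0.50 without SCR replicate 3 to -0.10 without SCR replicate 2. SOAT1, the enzyme that esterifies cholesterol for storage, did not pass it either (0.055, interval -0.047 to 0.16, and -0.066 with length offsets).

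ABCA1 had the widest change of the 33 genes, and the other genes of the LXR and efflux group did not follow it past the thresholds. ABCA1 (ENSG00000165029.17, chromosome 9, 104781006 to 104928155) encodes the pump that loads cholesterol and phospholipid onto lipid-poor apolipoproteins. It was at 13.9, 13.4 and 14.1 CPM in SCR and at 43.98, 37.5 and 37.4 CPM in TFEB-KD. The lowest TFEB-KD library was far above the highest SCR library, and TFEB-KD replicate 1 was the highest of all. The log2 FC was 1.52 (SE 0.071, edgeR adjusted p = 6.33e-08), and 200 of the 16931 genes tested had a higher value. With each library left out it lay between 1.46 and 1.59. Its transcripts had the same mean length in both groups (ratio 1.00). The E-box of its promoter starts at base -147 from the RefSeq start.

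ABCG1, the pump that hands cholesterol to mature lipoproteins, was scarce in these cells, at 0.776, 0.876 and 0.944 CPM in SCR and at 1.14, 0.699 and 0.942 CPM in TFEB-KD. The groups overlapped, and the 31 to 50 counts per library left an interval from -0.42 to 0.62 around the log2 FC of 0.10. For the receptors, NR1H2 was at 123, 129 and 132 CPM in SCR and at 116, 119.7 and 125 CPM in TFEB-KD, with overlap (-0.091, interval -0.19 to 0.010, and -0.12 to -0.049 with 1 library left out). NR1H3, the gene of LXR alpha and itself an LXR target, was at 9.09, 9.83 and 9.79 CPM in SCR and at 8.42, 8.59 and 8.25 CPM in TFEB-KD. All 3 TFEB-KD libraries were below SCR, but the gene did not pass the test (-0.18, SE 0.070, edgeR adjusted p = 0.0542), with an edgeR adjusted p of 0.0447 when SCR replicate 1 was left out. Exons of NR1H3 overlap those of the more abundant ACP2 on the opposite strand.

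Of the 3 fatty acid genes, 2 were lower and none was higher, beside 15% and 9.99% of all genes tested. SCD (ENSG00000099194.6, chromosome 10, 100347233 to 100364826), the desaturase that makes monounsaturated fatty acids, was at 173, 185 and 205 CPM in SCR and at 142, 132 and 127 CPM in TFEB-KD. Its groups did not overlap, and the log2 FC was -0.49 (SE 0.065, edgeR adjusted p = 1.29e-04), with a range from -0.55 to -0.42 as each library was left out. ACACA (ENSG00000278540.5, chromosome 17, 37084992 to 37406836), which makes malonyl-CoA and so commits carbon to fatty acids, was at 46.7, 51.9 and 51.5 CPM in SCR and at 41.4, 37.8 and 36.4 CPM in TFEB-KD. These groups did not overlap either (-0.38, SE 0.061, edgeR adjusted p = 5.75e-04), but the call was lost without SCR replicate 2 (-0.35) or 3 (-0.35), without TFEB-KD replicate 2 (-0.34) or 3 (-0.31), and with transcript lengths taken into account (-0.25, adjusted p = 0.230). FASN, the synthase that follows ACACA, was at 232, 244 and 238 CPM in SCR and at 278, 245 and 248 CPM in TFEB-KD. It did not pass the test, at 0.11 with an interval from -0.0094 to 0.23 and a range from 0.066 to 0.16 with 1 library left out.

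**Figure D4:**
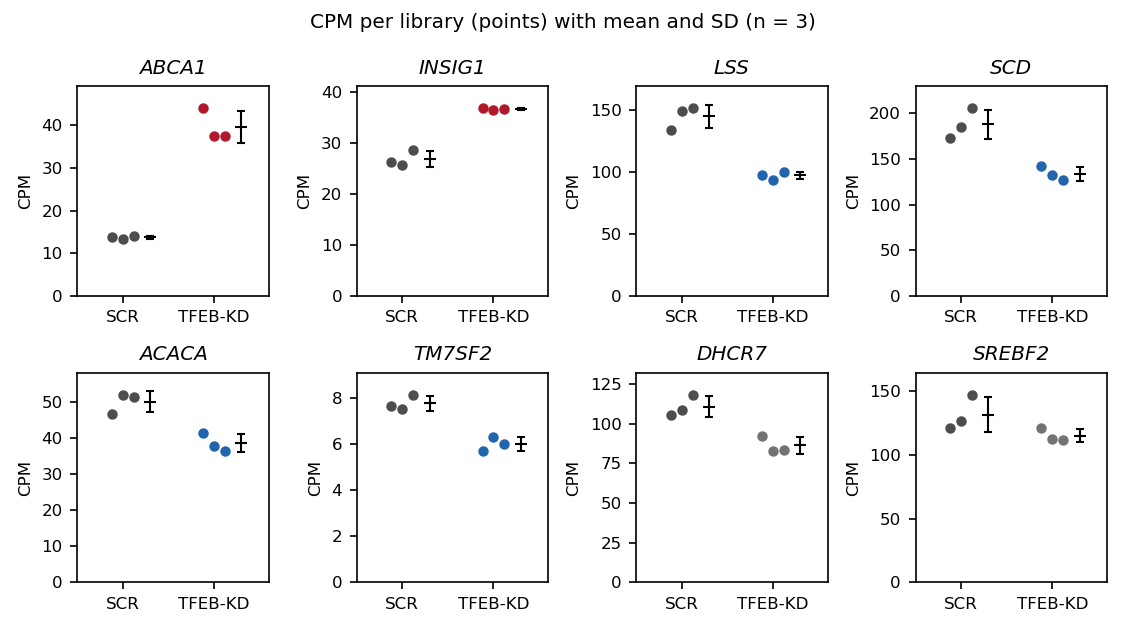
CPM per library (points) with the mean and SD (bars, n = 3) for the 6 DEGs and for DHCR7 and SREBF2, each axis starting at 0. ABCA1 and INSIG1 are higher in all 3 TFEB-KD libraries, LSS, SCD, ACACA, TM7SF2 and DHCR7 are lower in all 3, and the groups of SREBF2 meet.

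Calls of INSIG2, DHCR7, ACACA, TM7SF2 and CYP51A1 moved with the processing. INSIG2 and DHCR7 were called when values were scaled for transcript length, and ACACA and TM7SF2 were not. Scaling by library size alone, which raises the median log2 FC of all genes tested from 0.0033 to 0.093, left LSS and SCD as the only genes of the 33 called lower and added CYP51A1 (0.37) to those called higher. With that scaling IDI1, MSMO1, NSDHL, EBP, INSIG2, SOAT1 and FASN also had an adjusted p under 0.05, within the fold change threshold, and SREBF2 and STARD4 no longer had one. Over all genes, that scaling also turned the split of DEGs from 40% higher to 55% higher. The direction of ABCA1, INSIG1, LSS, SCD, ACACA and TM7SF2 was the same under every setting tried.

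**Figure D5:**
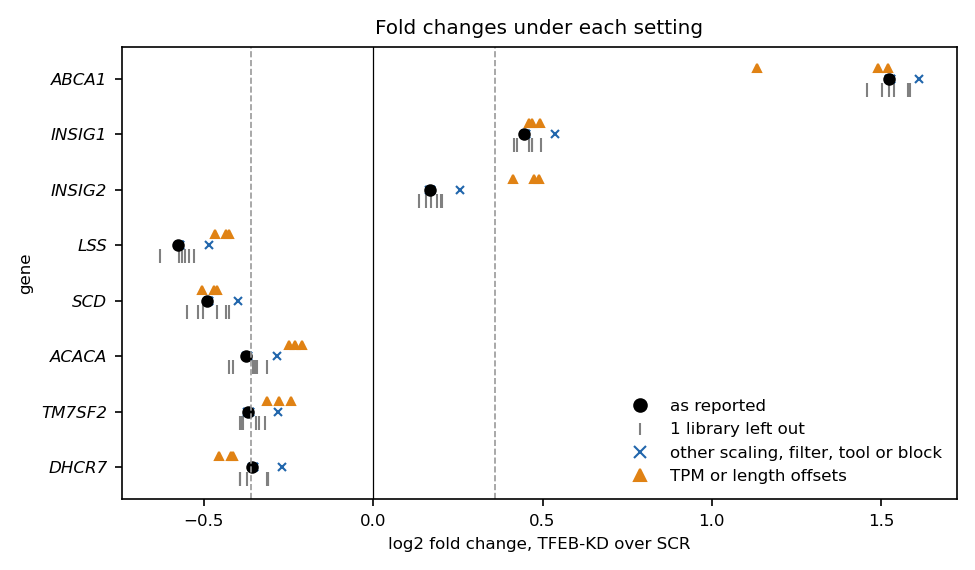
Log2 fold change of 8 genes as reported (black circles), with 1 library left out (gray bars), with another scaling, filter, tool or block (blue crosses) and on TPM or with length offsets (orange triangles), with dashed lines at 0.36 in either direction. The marks of ABCA1, INSIG1, LSS and SCD stay on 1 side of the threshold, and those of INSIG2, ACACA, TM7SF2 and DHCR7 cross it.

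Around the 33 genes, 72 further genes of the same pathways were listed by role, and 64 passed the filter on low counts. Of these 64, 6 were higher and 10 lower, close to the 9.99% and 15% of all genes tested, with a median log2 FC of -0.050 (0.0033 over all genes tested). The same shares of all genes are the background of the counts in each list. In the processing and turnover of SREBPs, 1 of 10 was called, MBTPS1, the site-1 protease that makes the first cut in SREBPs. It was at 153 ± 6.36 CPM (SD, n = 3) in SCR and at 103 ± 6.64 CPM (SD, n = 3) in TFEB-KD, a log2 FC of -0.57 (SE 0.054, edgeR adjusted p = 1.18e-05). Of 11 genes of the isoprenoid branch, 1 was higher and 2 lower, led by NUS1 (-0.65), a subunit of the enzyme that makes dolichol precursors, and PDSS2 (0.52), which builds the tail of coenzyme Q. Among 13 other fatty acid genes tested, 1 was higher and 2 lower, the desaturases SCD5 (-1.08) and FADS2 (-0.63). The higher one was the acyltransferase gene GPAM (0.45), and the other lower gene of the isoprenoid branch was the farnesyltransferase subunit FNTB (-0.43), both named after their values were seen. SCD5 fell from 42.4 ± 1.73 CPM (SD, n = 3) to 20.1 ± 1.43 CPM (SD, n = 3).

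Of 9 partners and targets of LXR tested, 2 were higher and 1 lower. PLTP, a plasma phospholipid transfer protein and LXR target, had a log2 FC of 0.41 (SE 0.058), and LPCAT3, a phospholipid acyltransferase and also an LXR target, of -0.37 (SE 0.079). RXRA, the partner receptor, was the other higher gene (0.37), named after its value was seen. Of 18 genes of sterol transport and uptake, 1 was higher and 4 lower. The higher one was VLDLR, a lipoprotein receptor, which rose from 13.2 ± 1.03 CPM (SD, n = 3) to 32.0 ± 2.37 CPM (SD, n = 3), a log2 FC of 1.28 (SE 0.073, edgeR adjusted p = 3.07e-07). STARD5, a sterol and bile acid carrier, had a log2 FC of -1.103 (SE 0.170, edgeR adjusted p = 3.83e-04), from a low level of 2.16 CPM. LIPA, the lysosomal lipase that frees cholesterol from its esters (-0.74), and CAV1, the caveola protein (-0.78), were named after their values were seen. The fourth lower gene of the list, SOAT2, averaged 0.403 CPM in SCR and 0.155 CPM in TFEB-KD. Of 3 oxysterol and bile acid enzymes tested, HSD3B7 was higher (0.37).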

How the data were processed

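RNA-seq libraries (SMARTer mRNA-seq kit) of 3 SCR and 3 TFEB-KD samples were processed by the authors in the nf-core pipeline with Trim Galore, STAR 2.7.10a and Salmon 1.10.1 on the hg38 GENCODE reference. The deposited files hold estimated counts for each gene, raw in that no scaling between libraries was applied, and TPM, which the authors scaled for transcript length and to a common total. Their DESeq2 table (fold changes and p-values) was not used. Counts were rounded, filtered by filterByExpr, scaled by TMM and compared in R 4.3.3 with edgeR 4.0.16 (glmQLFit, glmQLFTest, no block, Benjamini-Hochberg over 16931 genes). The standard error is the unshrunk log2 fold change over the square root of F, and intervals are at 95%. Alternatives used DESeq2 1.42.0 and limma 3.58.1. No library was a copy of another, with a chi-square per degree of freedom of 5.08 or more in every pair. Of the gene identifiers, 62700 are in GENCODE 44, used for coordinates; the release the authors used and the strand setting of the counting are not given in the sources used here. The code was also tested on simulated data.

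The members and the gene lists were chosen with earlier results of these data known. Full values were given for TFEB, for the 2 called genes of widest change in each role group, and for the SREBF, INSIG and NR1H genes. From each further list, the 2 called genes of widest change with a mean of at least 1 CPM were named. Marker lists of keratinocytes (summed TPM 69.6 in SCR and 63.5 in TFEB-KD, mostly KRT10) and melanocytes (0.822 and 0.490) were also read.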

Additional observations from a re-analysis of the deposited data

How the results depend on the processing

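Over 14 alternatives for each of the 33 genes (462 values), 423 kept the direction and the side of the thresholds, 15 lost a call, 10 gained a call and 14 changed sign, the last only in genes that were not called. The cause of these changes was not tested. With library sizes alone, 2 of the 33 genes were lower and 3 higher, beside 2047 lower and 2497 higher of the 16931 genes tested. The lower ones were 1 of the sterol steps (so 1 of the 18 synthesis genes) and 1 fatty acid gene. Among the higher ones was 1 sterol gene (again 1 of the 18). FDFT1 (0.037), SQLE (0.012), SC5D (0.048) and SCAP (0.0028) then had log2 fold changes above 0. With length offsets or limma on log2(TPM + 1) or log2(TPM + 0.1), 2 sensing genes were higher and 1 fatty acid gene lower. Under these settings 1352 to 1681 of all genes tested were higher and 1668 to 2144 lower. SOAT1 was then below 0 (-0.066, -0.037 and -0.040) and, with length offsets, so was HSD17B7 (-0.0021). Under limma on log2(TPM + 1), 1668 of all genes were lower. With no fold change threshold, an alternative chosen after seeing the data, 3498 of all genes were higher and 4069 lower. Of the 33 genes, 10 were then lower, among them 6 of the 18 synthesis genes (3 mevalonate), 1 sensing and 1 uptake gene, and 1 synthesis gene, of the sterol steps, was higher.

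With each library left out, 2 to 5 of the 33 genes were lower and 2 were higher. Over all genes tested in the same fits, 2294 to 2493 were lower and 1582 to 1690 higher. Of the 33, 1 to 3 were lower in the sterol steps and in synthesis as a whole, and 1 to 2 in the fatty acid group. The lowest count of lower genes among the 33, 2, came with replicate 3 of either group left out, and the highest, 5, without SCR replicate 1. Ranges that crossed 0 were -0.099 to 0.016 for FDFT1, -0.13 to 0.0052 for SQLE, -0.088 to 0.0090 for SC5D, -0.0094 to 0.041 for SREBF1 and -0.053 to 0.29 for ABCG1. TFEB lay between -0.84 and -0.72.

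Deviations of same-numbered libraries from their group means correlated at -0.071, 0.076 and 0.097, and those of differently numbered libraries at -0.17 to 0.11. With 3 libraries per group, these values cannot show whether equal numbers mark a shared culture or batch. With the number as a replicate block, 4045 genes were DEGs in place of 4223, and again 2 of the 33 genes were higher and 4 lower. Depth limits MYLIP and ABCG1 most, with 31 to 72 counts per library and intervals of -0.88 to 0.18 and -0.42 to 0.62.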
